A study of Caenorhabditis elegans with 8 samples.

Results

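Small RNAs that match the genes of wild-type Caenorhabditis elegans were examined in the 2 libraries of N2 animals grown on OP50, out of 8 libraries in the series. N2 is the standard laboratory wild type, with no mutation or transgene named in the labels, and OP50 is the usual bacterial food, with no RNAi trigger. Each library came from a pool of about 50000 whole young adults, grown from synchronised larvae for 50 h at 20 °C. Small RNA was size-selected at 20 to 26 nt. It was then treated with TAP, which removes phosphates from triphosphate ends so that such RNAs can be joined to an adapter. The other 6 libraries, of rde-12(hj41) animals and of animals fed a sel-1 trigger, were not used. Both N2 libraries were taken by their labels, and all 1937 genes with counts were kept once each. Totals over these genes were 4270098 counts in library 1 and 4382256 in library 2. Levels are given as CPM, a gene's counts scaled so that each library's genes sum to 1000000. The table analysed here covers 1937 genes, chosen by a rule that no label or header states, so CPM are relative to this selection and not to a whole library.

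Nematodes make a large class of short antisense RNAs by copying transcripts with RNA-dependent RNA polymerases. Because these products begin with a triphosphate, TAP treatment lets them enter a library. Worm-specific Argonaute proteins (WAGOs) carry many of them and silence foreign or duplicated sequences, pseudogenes and transposons. Another Argonaute, CSR-1, carries small RNAs against genes that the germline expresses, and ERGO-1 starts a branch that acts on recently duplicated genes. Neither Argonautes nor the strand or first base of a read were measured in these counts, so no gene can be placed in a branch from them.

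Small RNAs were concentrated on few genes, and the same genes led in both libraries. Together the 10 genes with the highest mean CPM held 10.94% of all counts and the top 100 held 47.5%. The first 50% of counts fell on 112 genes, 5.78% of all. Reaching 90% took 774 genes. The Gini index, which is 0 when all genes carry equal amounts and approaches 1 when a single gene carries everything, was 0.730 in library 1 and 0.726 in library 2 (mean 0.728 ± 0.00296, SD, n = 2). The 10 highest genes of each library held 11.06% of library 1 (Wilson 95% interval 11.0323% to 11.0918%) and 10.86% of library 2 (10.8323% to 10.8906%). Such intervals describe counting error alone: no molecular identifiers are named in the labels, so several reads may stem from 1 molecule.

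Most genes sat far below these leaders. The median gene had 149 CPM, whereas the average over genes was 516 CPM. From the 10th to the 90th percentile of genes, levels ran from 29.2 to 1130.4 CPM, a 38.7-fold span. The highest gene stood 84.0-fold above the median. By class of mean level, 9 genes were at or above 10000 CPM and held 9.97% of counts. Another 218 genes between 1000 and 10000 CPM held 56.0%. Between 100 and 1000 CPM lay 994 genes with 30.5% of counts, and 671 genes between 10 and 100 CPM held 3.48%. The last 45 genes were below 10 CPM, with 0.0246% of counts in all.

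**Figure D1:**
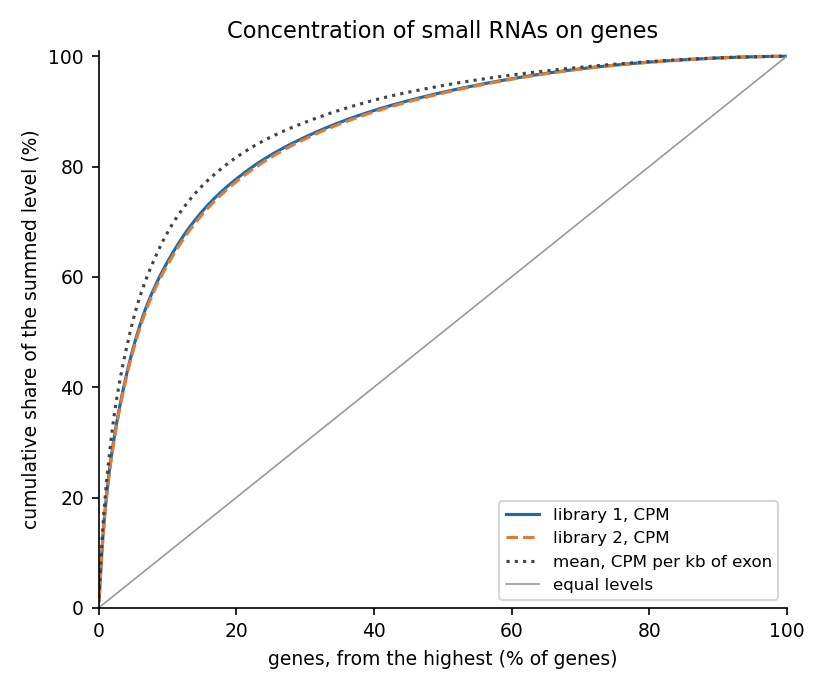
Cumulative share of the summed level (y, %) against the share of genes counted from the highest (x, %), for library 1 and library 2 in CPM and for their mean per kb of exon. The curves of both libraries lie on each other and reach 50% at 112 genes on the mean, and the curve per kb lies above them.

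The largest single load fell on F37H8.2, a pseudogene, with 53045 counts in library 1 and 54969 in library 2, or 12483 ± 85.6 CPM (mean ± SD, n = 2). In both libraries it ranked first, above every value of any other gene. It was followed by Y71A12B.10 with 11543 ± 139 CPM, Y62F5A.9 with 11351 ± 162 CPM and T01A4.3 with 11229 ± 213 CPM. T01A4.3 has no gene record in the annotations used here, so its type and length were not assigned. Y71A12B.10 and Y62F5A.9 overlapped in their values, as did Y62F5A.9 and T01A4.3, although ranks 1 to 9 were the same in both libraries.

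Named genes among the 20 highest were bath-20 and bath-45, fkb-8, frm-1 and nhr-88. Both bath genes encode proteins with a MATH and a BTB domain, the kind that links targets to ubiquitin ligases. For bath-20 (B0047.1), 48461 and 48089 counts gave 11161 ± 265 CPM. For bath-45 (F29C12.5), 47000 and 47423 counts gave 10914 ± 131 CPM. The values of these 2 genes overlapped, since library 2 of bath-20 (10974 CPM) was below library 1 of bath-45 (11007 CPM). Within each library bath-20 was the higher of the 2. An FK506-binding protein family member, fkb-8 (Y18D10A.25), had 46100 and 45580 counts (10599 ± 279 CPM). The gene frm-1 (ZK270.2), of the FERM domain family that ties membranes to the cytoskeleton, had 44063 and 44408 counts (10226 ± 131 CPM). The nuclear hormone receptor gene nhr-88 (K08A2.5) had 32823 and 32734 counts (7578 ± 153 CPM). The other 15 of the 20 carry a sequence name only. Of all 1937 genes, 928 do.

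Other members of the top 20 were Y54G2A.21 (10147 ± 200 CPM), F15D4.5 (9777 ± 248), ZC247.1 (9640 ± 476), C04G2.10 (9553 ± 139), AC8.10 and AC8.3 (each 8314 ± 422), B0303.7 (7798 ± 170), F02C12.3 (7506 ± 183), F49F1.8 (6737 ± 170), Y46H3C.6 (6604 ± 304) and W04A8.6 (6359 ± 179). Rank 21, the first gene outside, was F37D6.3 with 6289 ± 143 CPM, within the spread of rank 20. ZC247.1 had the widest absolute spread of the 20, with 39729 counts in library 1 and 43721 in library 2. Both libraries shared 9 of their 10 highest genes, 19 of their 20 highest and 98 of their 100 highest.

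**Figure D2:**
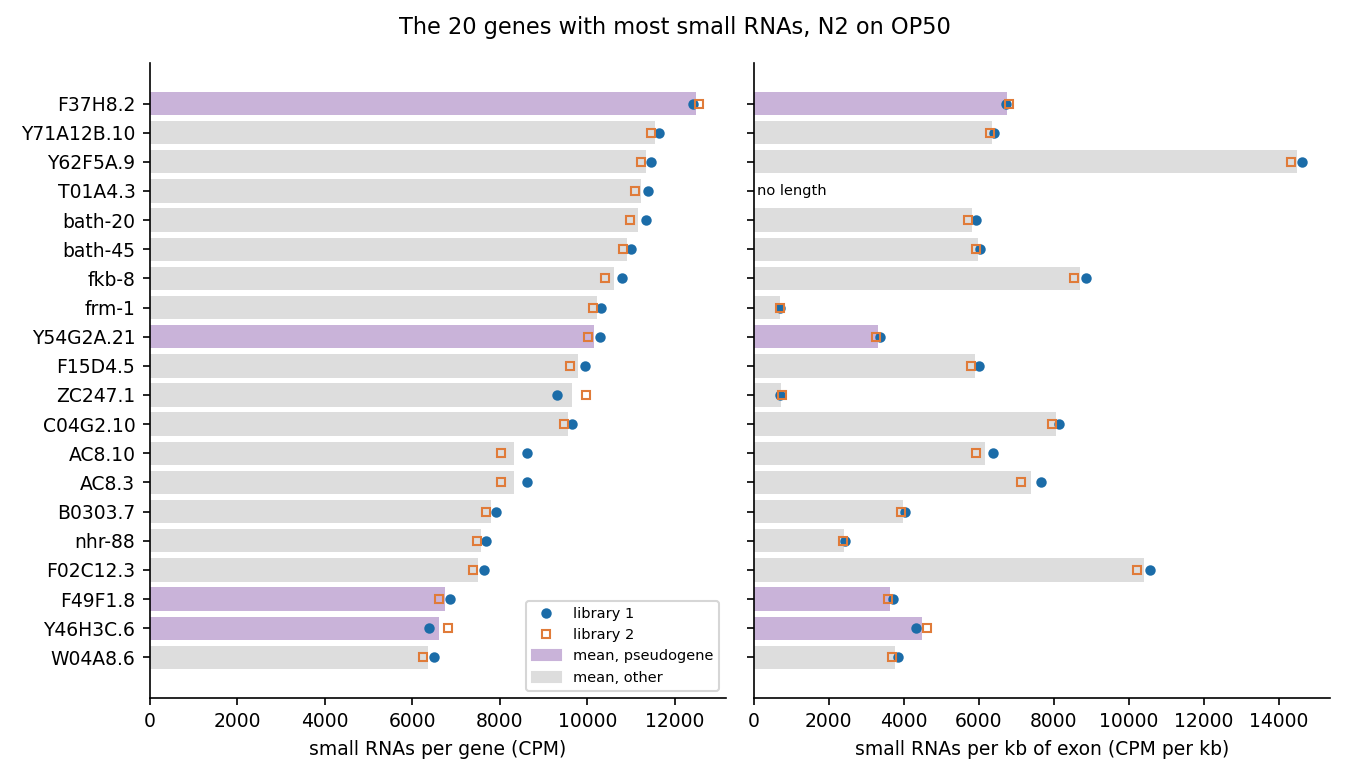
Small RNA level of the 20 genes with the highest mean CPM, as CPM per gene (left) and as CPM per kb of exon (right). Bars give the mean of 2 libraries, with pseudogenes in purple, and symbols give each library. The symbols of a gene lie close together compared with the range over genes, and frm-1 and ZC247.1 are short on the right, at 697 and 723 CPM per kb.

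Long genes can collect more small RNAs than short ones, so genes were also compared per kb of merged exons, which were known for 1902 genes. On this scale the order changed, with 10 of the 20 highest genes by CPM remaining among the 20 highest per kb. Y62F5A.9 led with 14478 ± 207 CPM per kb over 784 exonic bases. It was followed by F37D6.3 with 11560 ± 263 CPM per kb over 544 bases. The pseudogene ZK380.5 had 10552 ± 402.9 CPM per kb, F02C12.3 had 10396 ± 253 and the non-coding RNA gene Y77E11A.3 had 10328 ± 246. The last 3 lay within their spread of each other. F59C12.4, with 150 annotated exonic bases, had 9614 ± 239 CPM per kb.

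The rest of the 10 highest per kb were nssp-37 (Y76B12C.8; 9532 ± 639), Y17D7B.4 (8790 ± 341), fkb-8 (8702 ± 229) and K06B9.6 (8500.1 ± 48.2 CPM per kb). In contrast, frm-1, with 14662 exonic bases, had 697 ± 8.94 CPM per kb and stood at rank 234 on this scale, and ZC247.1, with 13329 bases, had 723 ± 35.7 and stood at rank 228. Levels were no less unequal per kb: the Gini index of the mean was 0.766, and 87 genes held 50% of the summed density. The 10th and 90th percentiles were 21.3 and 924 CPM per kb, a 43.5-fold span, while exonic lengths spanned 5.54-fold between the same percentiles. Across genes, mean CPM and exonic length had a Spearman rank correlation of 0.189 (n = 1902 genes, which share both libraries). The median exonic length was 1402 bases among the 95 of the top 100 genes by CPM with a known length, against 1403.5 bases over all 1902.

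At the median, pseudogenes in this table carried more small RNAs than protein-coding genes. A pseudogene is a copy of a gene that has lost the ability to encode the full protein. The annotation marked 85 of the genes as pseudogenes, 4.39% of all, and these held 12.13% of counts in library 1 and 12.11% in library 2 (mean 12.12% ± 0.0189, SD, n = 2). Their median level was 610 CPM, with an interquartile range of 201 to 1670 CPM, against a median of 139 CPM and a range of 61.1 to 344 CPM for the 1809 protein-coding genes. Per kb of exon, the medians were 496 for pseudogenes and 88.6 CPM per kb for protein-coding genes, a 5.59-fold difference. Of the 85 pseudogenes, 15 were among the 100 highest genes by CPM (17.6% of them), against 79 of the 1809 protein-coding genes (4.37%). The type was taken from a current annotation and may differ from the one the counts were made with. Another 35 genes had no record there, so they enter neither the type nor the per kb comparison. They held 4.62% of counts, with a median of 782 CPM, and 5 were among the 100 highest. This is a description over genes of the same 2 libraries, and no test was made.

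**Figure D3:**
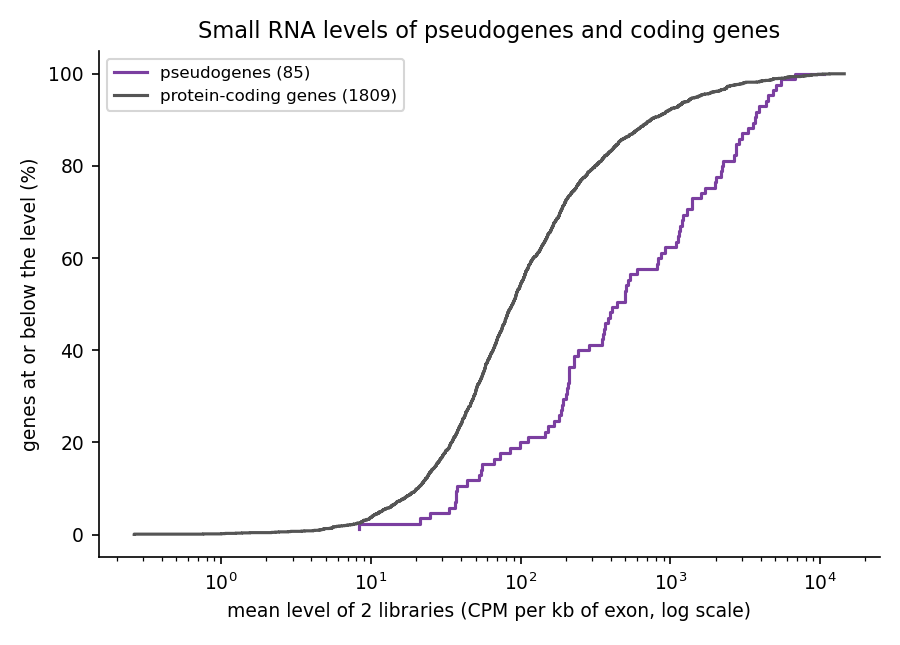
Cumulative percentage of genes (y) at or below a mean level in CPM per kb of exon (x, log scale), for 85 pseudogenes and 1809 protein-coding genes. The pseudogene curve lies to the right, with medians of 496 and 88.6 CPM per kb.

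Genes annotated as non-coding RNA genes were few. There were 5 long non-coding RNA genes with 0.219% of counts and 2 other non-coding RNA genes with 0.676%. C40A11.10, which Ensembl lists as a microRNA gene and RefSeq names mir-8199, had 304 and 329 counts (73.1 CPM). Its annotated exons add up to 413 bases, far more than a microRNA. Where its reads fell is not known, so its counts cannot be taken as those of the mature microRNA. It is also on the list of ERGO-1 targets below. Under the name classes of piRNAs and structural RNAs there were 0 genes.

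Among the gene lists, the 5 genes listed as WAGO targets had the highest median, at 6289 CPM and 5889.7 CPM per kb, against 149 CPM and 92.9 CPM per kb over all genes. All 5 of them were above the median of all genes, and 4 were among the top 100. The 2 highest were bath-45, described above, and F15D4.5, with 42496 and 42078 counts. F37D6.3 lay at the median. C38D9.2 had 3436 CPM and bath-13 (F40B1.1), another MATH and BTB gene, 1497 CPM. The 5 genes held 3.21% of library 1 and 3.17% of library 2. The list names genes already known for abundant small RNAs, so their place is no independent finding.

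Genes listed as ERGO-1 targets came next, with 25 of the 28 listed genes measured. Their median was 1015.0 CPM and 1200.1 CPM per kb, 21 of 25 exceeded the median of all genes, and 8 were in the top 100. They held 4.32% of library 1 and 4.21% of library 2. K06B9.6 was the highest, with 23250 and 23670 counts (5423 ± 30.8 CPM), followed by K02E2.6 with 20705 and 20501 counts (4764 CPM). The list also reached low: T05E12.8 had 29 and 32 counts. Pseudogenes made up 8 of its 25 genes. This list too was chosen with earlier results of these data known, so its high place is no independent finding. Neither target list was compared with a published table.

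Families of rapidly duplicating genes held both high and low members. The 54 F-box genes, which encode adaptors of ubiquitin ligases, ran from 12.81 to 6221 CPM with a median of 205 CPM (176 CPM per kb), and 32 of them exceeded the median of all genes. The highest were fbxa-192 (F57G4.8), with 26943 and 26870 counts, and fbxb-14 (W08F4.9), with 14140 and 14908. The third F-box class was low: among 8 fbxc genes the highest, fbxc-23 (Y48E1B.11), had 120 CPM. The 18 MATH and BTB genes had a median of 286 CPM (267 CPM per kb), with 2.98% ± 0.0434 of counts (SD, n = 2). The third highest of them, bath-13, had 1497 CPM, far below bath-20 and bath-45. The 18 nuclear hormone receptor genes had a lower median than all genes, 125 CPM and 54.7 CPM per kb. Yet nhr-88, nhr-229 (3127 CPM) and nhr-15 (2244 CPM) were in the top 100, whereas the fourth, nhr-66, had 263 CPM. Reads that match several members of such families may have been divided or counted more than once, so the level of each member is uncertain.

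A small family in which every member was high was picked after its values were seen. The 6 genes of the enu class had between 2267 and 4497 CPM, with enu-3.3 (W03G9.3) at the top with 18975 and 19939 counts. They held 2.01% of counts. The linker histone gene his-24 (M163.3) had 21577 and 22654 counts (5111 CPM), while the other 2 genes of the his class, his-37 and his-35, had 81.8 and 39.3 CPM. Outside that class, and named after their values were seen, the histone H1-like genes hil-8, hil-3 and hil-4 had 2776, 1182 and 434 CPM. Of 4 chemoreceptor genes, srh-1 (T11F9.18) had 2193 CPM and srt-43 (F18E2.4) 697 CPM. The 6 C-type lectin genes, a family of sugar-binding proteins, had a median of 64.9 CPM and 43.3 CPM per kb. Their highest members were clec-12 with 221 CPM and clec-119 with 111 CPM.

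Of 40 listed germline markers 10 were measured, with a median of 331 CPM (124 CPM per kb). By CPM, 8 of the 10 exceeded the median of all genes and 0 were in the top 100. The list does not cover every gene active in the germline: par-2, an embryonic polarity gene outside it and named after its value was seen, had 4716 CPM. The Vasa-like helicase gene glh-1 (T21G5.3) had 4360 and 4920 counts (1072 ± 71.9 CPM), and pgl-3 (C18G1.4), a germ granule component, 2349 and 2804 counts (595 CPM). Next came mes-4, a histone methyltransferase gene, with 473 CPM, and deps-1, another germ granule gene, with 414 CPM. The yolk receptor gene rme-2 had 348 CPM, the meiotic cohesin gene rec-8 314 CPM and meg-4, of a germ granule family, 310.1 CPM. Lowest were glh-2, a relative of glh-1, with 187 CPM, the synaptonemal complex gene syp-2 with 97.0 CPM and mex-6 with 90.8 CPM. Both libraries came from whole animals, so more cells of a tissue and more small RNA per cell cannot be told apart.

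Sperm genes, listed by name class, had low totals, while their densities differed by class. The 28 sperm genes had a median of 42.8 CPM, with 3 of 28 above the median of all genes. Per kb their median was 118.5, above the 92.9 CPM per kb of all genes, and 17 of 28 exceeded the latter. The 8 spe genes lay below it, with a median of 28.1 CPM per kb. The 7 ssp genes had a median of 231 CPM per kb and the 6 nspd genes 100.4. The highest was spe-41 (K01A11.4), a TRP channel gene, with 1926 and 2013 counts (455 CPM, 167 CPM per kb), then spe-47 (Y23H5A.4) with 247 CPM. The sperm gene ssp-16 had 205 CPM but 620 CPM per kb.

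**Figure D4:**
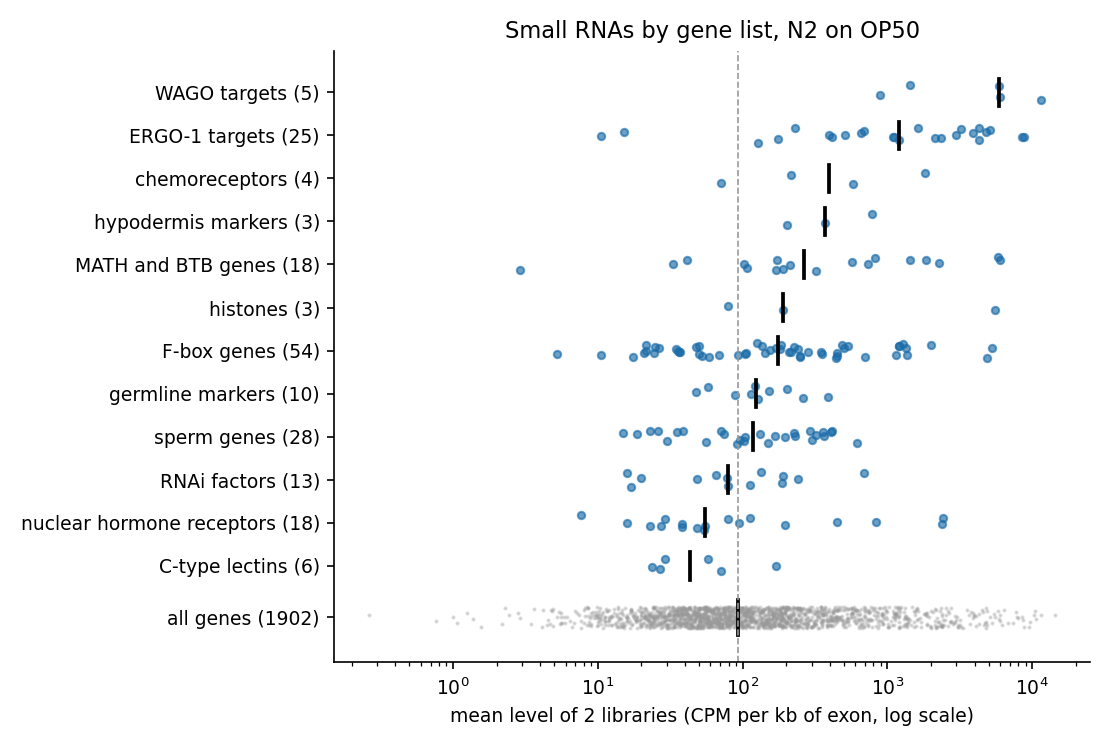
Mean level of 2 libraries (x, CPM per kb of exon, log scale) of each measured member of 12 gene lists with 3 or more members, with the number of members in brackets, and of all 1902 genes with a known length. Histones are the his class only. Short black lines are medians and the dashed line is the median of all genes, 92.9. WAGO and ERGO-1 targets lie highest, and C-type lectins have the lowest median. The lists were chosen with earlier results of these data known.

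Genes of the RNAi machinery were themselves matched by small RNAs. Of 61 listed factors 13 were measured, with a median of 243 CPM and 78.9 CPM per kb, and 10 of 13 exceeded the median CPM of all genes. Per kb the list lay on the other side, its median below the 92.9 CPM per kb of all genes and 6 of 13 members above it. The highest was ppw-1 (C18E3.7), an Argonaute gene needed for RNAi in the germline, with 9205 and 9420 counts (2153 CPM, 693 CPM per kb). Argonaute-type genes followed: wago-2 (F55A12.1) with 729 CPM and prg-2 (C01G5.2) with 610 CPM, both marked as pseudogenes, and sago-2 (F56A6.1) with 549 CPM. The RNA-dependent RNA polymerase gene rrf-2 had 545 CPM. At the low end, the sperm Argonaute genes alg-4 and alg-3 had 68.7 and 52.4 CPM and eri-7 had 37.2 CPM.

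Markers of other tissues were rare among these genes. The hypodermis list held the col name class of collagens plus named genes such as dpy-7 and rol-6. Its 3 measured genes were all of the col class, with a median of 355 CPM, and none of the named genes was measured. These were col-71 (1024 CPM), col-157 (355 CPM) and col-111 (291 CPM). There were 2 ribosomal protein genes, rpl-13A with 120 and rpl-23A.2 with 53.8 CPM. Of 16 intestine, 16 body muscle and 19 neuron markers, 0 were among the 1937 genes. Since the genes are a selection, this does not measure small RNAs against those markers. Among the 10 unc genes, a class named for uncoordinated movement, unc-40, the netrin receptor gene, was highest with 364 CPM (75.3 CPM per kb).

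Some genes of the table lay beside each other. Of the 1902 genes found in the annotation, which holds 22113 protein-coding genes and pseudogenes, 462 (24.3%) directly neighboured another of the table, in 253 pairs, and 34 runs held 3 to 5 consecutive genes. The share expected for genes picked without regard to position was not computed. Across these pairs the levels of neighbours had a Spearman rank correlation of 0.405 (n = 253 pairs, which share both libraries and in part genes). Copies with identical counts, such as the AC8 genes below, enter these pairs more than once. The runs with the largest sums were 2 triplets of AC8 genes. In one, AC8.4, AC8.3 and AC8.7 had 1918, 8314 and 2031 CPM. In the other, AC8.11, AC8.10 and AC8.12 had the very same counts. AC8.3 and AC8.10, for example, had 36778 counts each in library 1 and 35126 each in library 2.

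Equal counts of this kind occurred in 21 pairs of different gene IDs. The 9 pairs on the same chromosome included AC8 and F07B7.1 with W09B7.1 (12425 and 12985 counts each), and held 3.45% of counts. The 12 pairs on different chromosomes were at most at 132 CPM. Whether the pairs on the same chromosome hold the same reads counted at each copy was not tested. Exons of 361 genes (18.98%) overlapped exons of a gene on the opposite strand, against 17.9% of all annotated genes. Since the strand counted is not given, reads from both cannot be told apart there. Of the 20 highest genes with a record, only B0303.7 overlapped such a gene, over 42 of its 1958 exonic bases.

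Both libraries gave nearly the same level for nearly every gene of the table. Whether genes outside this selection agreed as well is not known. Across the 1937 genes the Spearman rank correlation of counts was 0.998, and Pearson's r of log2(CPM + 1) was also 0.998. Genes are not independent replicates, so these describe the pair of libraries. The median gene differed 1.05-fold between libraries and 95% of genes differed by less than 1.23-fold. The median gene shifted by 18 ranks, and the largest shift of any gene was 226 ranks. Within the top 100 the largest shift was 16 ranks. Over 25% apart were 86 genes (4.44%), over 1.5-fold 14 genes (0.723%) and over 2-fold 5 genes (0.258%).

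Those 5 genes had few counts. C35D6.3 had 1 and 5 counts, zip-9 had 1 and 3, F36G3.2 had 5 and 12 and C11G6.2 had 30 and 15. ZC239.20 had 9 counts in library 1 and 0 in library 2, at least 3.08-fold higher in library 1 when the 0 is set to the limit of 3 counts that a count of 0 allows. Y7A5A.9, with 4 and 3 counts, was with zip-9 and C35D6.3 among the 3 lowest genes. Among genes with at least 50 counts in sum, the largest ratios were 1.64-fold for vha-2 (25 and 42 counts) and 1.61-fold for F48E3.6 (57 and 94), both higher in library 2. Next in that direction were fbxc-28 (46 and 72), trpp-12 (43 and 65), efsc-1 (154 and 230) and Y57E12AL.6 (106 and 156).

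Of the genes higher in library 1, Y71A12B.12 stood out by its depth, with 1319 and 873 counts (log2 ratio of library 1 to library 2 0.63). C44C1.1 (43 and 28 counts), best-26 (163 and 112), Y73C8C.3 (33 and 23), fbxc-38 (C02B8.2; 126 and 90) and Y43C5A.4 (85 and 61) were the others with the largest ratios in that direction.

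The libraries differed by more than counting error, most visibly where counts were high. For 398 genes (20.5%), the exact 95% interval of a gene's split between the libraries left out the split of the totals. Counting error alone would give at most 5%, and less where counts are low. Chi-square per degree of freedom was 3.497, so the libraries were not the same reads deposited again. In the highest decile of genes, the SD of the log2 ratio was 0.0625, against 0.0209 from counting error alone, and 53.6% of genes lay outside their interval. In the lowest decile the SD was 0.367, against 0.350 from counting, and 4.12% lay outside. The coefficient of variation between libraries beyond counting, from edgeR's common dispersion, was 3.74%. That the libraries come from separate animals rests on their labels.

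**Figure D5:**
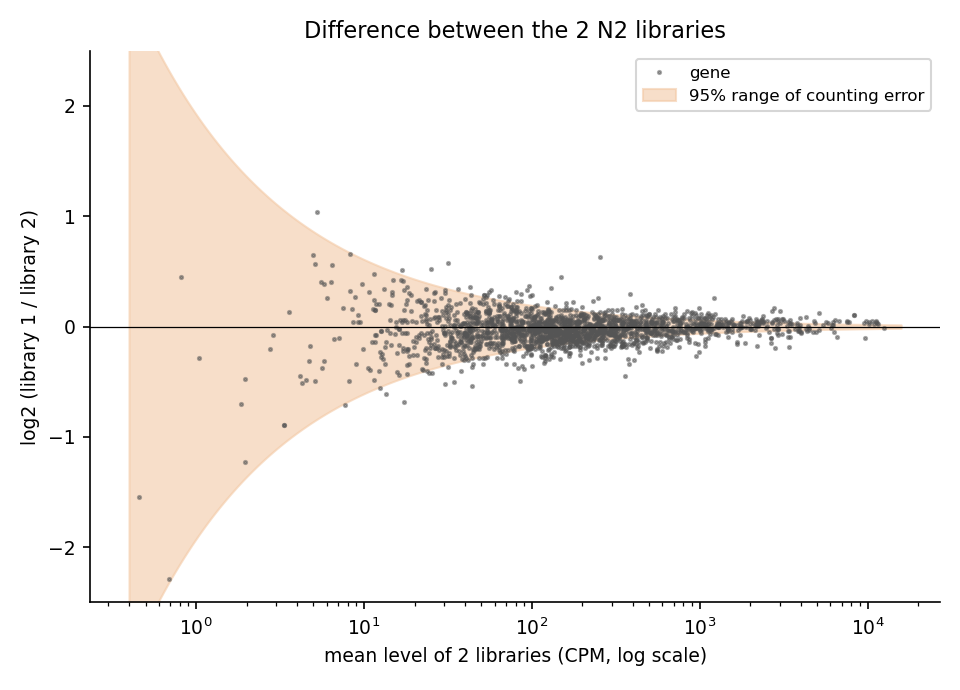
Log2 ratio of library 1 to library 2 (y) against mean CPM (x, log scale) for each gene with counts in both libraries, with the 95% range of counting error shaded. Scatter narrows with level, and high genes leave the shaded band although 0 genes of the highest decile differed by over 25%.

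The direction of the small differences between the libraries was counted in the gene groups with 10 or more members. Over 25% apart were 4.44% of all genes. Over all genes, 810 were higher in library 1 and 1127 in library 2, with a median log2 ratio of library 1 to library 2 of −0.02. Of the 10 germline markers, 2 were higher in library 1 and 8 in library 2, with a median of −0.13, and 0 of 10 exceeded 25%. The largest was pgl-3 at −0.22. Of the 25 ERGO-1 targets, 17 were higher in library 1 and 8 in library 2, with a median of 0.03, and 0 of 25 exceeded 25%. Of the 54 F-box genes, 31 were higher in library 1 and 23 in library 2 (median 0.04), and 3 of 54 exceeded 25%. Of the 28 sperm genes, 15 were higher in library 1 and 13 in library 2 (median 0.01), and 3 of 28 exceeded 25%. Directions were also mixed in the other groups. Of 18 MATH and BTB genes, 10 were higher in library 1 and 8 in library 2 (median 0.02). Of 18 nuclear hormone receptor genes, 11 were higher in library 1 and 7 in library 2 (median 0.02). Of 13 RNAi factors, 6 were higher in library 1 and 7 in library 2 (median −0.03). In these 3 groups 0 genes exceeded 25%. With 1 library on each side, these are values of the 2 libraries and were not tested.

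Genes without a given name were more frequent at both ends of the range. In the highest decile of genes 39.7% carried a name from a gene class, in the fifth decile 67.5%, and in the lowest decile 38.7%. Pseudogenes were 31 of the 194 genes of the highest decile and 3 of the 194 of the lowest. Median exonic length was 1291.5 bases in the highest decile, 1743 in the fifth and 1030.0 in the lowest.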

How the data were processed

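Small RNA counts per gene were taken for the 2 N2 libraries on OP50 from the deposited table, which per the file headers holds counts, here whole numbers with no normalization. Per the labels' protocols, small RNA of 20 to 26 nt was TAP treated and made into libraries with the ScriptMiner kit. The submitters' processing notes list TopHat 1.4.1, SAMtools and bedtools, with no roles. Genome build, annotation, counted strand, treatment of reads with several matches and the gene selection are not given in the sources at hand, and each could move counts between similar or overlapping genes. Of 1959 rows, 22 repeat a gene with identical values and were counted once, leaving 1937 genes. The 2 columns of rde-12 libraries in the table and the sel-1 table were not used.

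CPM were computed from column sums, and mean ± SD over 2 libraries. Names came from RefSeq (1900 IDs matched), and gene type, merged exon length, overlaps and neighbours (next protein-coding gene or pseudogene) from Ensembl 115 (1902 matched), both of assembly WBcel235. No positions are printed, as the authors' build is unknown. The planned length from RefSeq proteins was replaced by annotated coding and exon length. Dispersion and TMM factors came from edgeR 4.0.16 in R 4.3.3, size factors from DESeq2 1.42.0, and the rest from Python 3.11.15 with scipy 1.17.1. No conditions were compared and no p-value was computed. The scripts were tested on simulated data.

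The gene lists were written from general knowledge, and they, the members and the rule for named genes were chosen with earlier results of these data known. Named were the 20 genes highest by CPM, rank 21, the 10 highest per kb of exon (the rule had coding length), the 6 largest ratios between libraries in each direction at 50 or more summed counts, the 3 lowest genes, the 2 highest of each list with at least 3 measured members and the highest gene of each name class with at least 8. Others, such as the enu genes, further list members, AC8 copies and the genes over 2-fold apart, were named after their values were seen.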

Additional observations from a re-analysis of the deposited data

How the results depend on the processing

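Of 37 alternative values that keep both libraries, 17 moved by less than the SD between libraries (counts by less than 1.5 times, the rank correlation and the coefficient of variation, which have no SD, by less than 0.0005) and 20 moved further. The 32 values from a single library are not counted here, since with 2 libraries a list's share in either lies within 1 SD of their mean by construction. With a single library, the Gini index ranged from 0.726 to 0.730, the share of the 10 highest genes from 10.86% to 11.06% and the number of genes holding 50% from 111 to 113. Per kb of coding length, which changes both the divisor and the genes (1809 genes, with 15 of the top 20, and no pseudogenes), the Gini index was 0.790, the share of the 10 highest 20.9%, genes holding 50% numbered 63 and 7 of the top 20 remained. Per kb of exonic length, chosen after the data were seen, these were 0.766, 12.9%, 87 and 10. Repeated rows kept gave the 10 highest 10.7%, and identical counts counted once, for this share also chosen after the data were seen, 11.14%. With repeated rows kept, list shares were 5.51% for ERGO-1 targets and 0.482% for germline markers, and 3.15% for F-box, 2.92% for MATH and BTB, 3.13% for WAGO, 0.316% for chemoreceptor, 0.513% for his class, 0.220% for sperm and 0.0539% for C-type lectin genes. Genes over 1.5-fold apart numbered 9 with at least 10 counts in each library, since low counts were left out, and 15 with TMM and 16 with DESeq2 factors. The coefficient of variation was 3.82% with column sums. No paired analysis was possible because a single group was described. Differences below counting error cannot be seen in the lowest decile of genes.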
